A study of Mus musculus with 12 samples.

Results

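Bcl6 and Prdm1 encode a pair of transcriptional repressors that oppose each other in B and T cells. They were 2 of the 18193 genes measured on an Affymetrix whole-genome mouse array. The probe sets taken were those whose platform annotation gives the single symbol Bcl6 or Prdm1, which were 3 of 45101. Bcl6 had 1421818_at and 1450381_a_at, and Prdm1 had 1420425_at alone. RNA came from CD4 T cells sorted directly from spleens of female MRL/Faslpr mice, a lupus-prone strain. All 4 populations carried the strain's lpr mutation of Fas, a death receptor gene. Every sort took TCRb+ CD4+ B220- cells. CD62Llo PSGL1lo, CD62Llo PSGL1hi and CD62Lhi PSGL1hi cells were CD44+, so antigen-experienced, and came from mice of 16 to 24 weeks. Naive CD62Lhi CD44lo cells came from mice of 6 to 8 weeks, so age cannot be told apart from population wherever naive cells are compared.

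Each population had 3 arrays. The sample titles name them technical replicates while the design text speaks of independent sorts, so a p-value here measures the spread between these arrays and may not reach the spread between animals. Whether animals were pooled is not stated. The titles and design text set the gate of the CD62Llo PSGL1hi arrays, whose description field gives CD62Lhi PSGL1lo instead. Selplg, the gene of PSGL1, had mean ratios of 0.133, 0.993, 1.04 and 1.10 in CD62Llo PSGL1lo, CD62Llo PSGL1hi, CD62Lhi PSGL1hi and naive cells. Every value is a linear ratio in which 1 stands for the median of that probe set among the 12 arrays, so it places arrays within 1 probe set and cannot say whether Bcl6 or Prdm1 RNA was the more abundant. In sorted populations measured in bulk, fewer cells that express a gene and less of its RNA in each cell cannot be told apart.

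Bcl6 is a BTB zinc finger repressor that directs CD4 T cells to become follicular helper cells, which help B cells in germinal centres. Prdm1 encodes Blimp-1, a PR domain zinc finger repressor that drives plasma cells in the B lineage. In T cells Blimp-1 acts in effector and regulatory cells that make interleukin 10. Each factor represses the gene of the other in mouse T and B cells, and cytokine signals through STAT proteins bear on both genes. In mice, PSGL1lo CD4 T cells of lupus-prone strains have been described as helper cells outside follicles.

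The start-site windows of both genes are shown because the members moved in opposite directions and both genes are reported to be bound by the other's product or by STAT proteins. RefSeq on GRCm38.p6 gave 3 windows of 300 bases, each from 250 bases before a start to 50 after it. All lay on the minus strand. Bcl6 spans chr16:23965050-23988866, and its windows are chr16:23988803-23989102, at the upstream end of the gene, and chr16:23981234-23981533, inside it. The Prdm1 window, chr10:44458699-44458998, lies inside the annotated gene (chr10:44437174-44528558). Capitals mark the letters TTCNNNGAA, the pattern that STAT proteins bind.
Bcl6 upstream window: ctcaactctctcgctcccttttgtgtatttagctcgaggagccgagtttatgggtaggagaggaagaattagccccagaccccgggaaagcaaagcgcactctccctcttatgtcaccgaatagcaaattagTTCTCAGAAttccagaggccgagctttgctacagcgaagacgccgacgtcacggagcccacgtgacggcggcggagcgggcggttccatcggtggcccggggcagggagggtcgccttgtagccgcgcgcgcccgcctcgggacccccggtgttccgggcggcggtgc
Bcl6 internal window: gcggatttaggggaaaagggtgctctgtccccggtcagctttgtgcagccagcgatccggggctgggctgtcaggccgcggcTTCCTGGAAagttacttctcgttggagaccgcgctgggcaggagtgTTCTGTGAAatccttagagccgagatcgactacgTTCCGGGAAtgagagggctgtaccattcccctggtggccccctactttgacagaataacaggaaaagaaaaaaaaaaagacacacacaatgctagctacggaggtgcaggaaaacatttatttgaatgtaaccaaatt
Prdm1 window: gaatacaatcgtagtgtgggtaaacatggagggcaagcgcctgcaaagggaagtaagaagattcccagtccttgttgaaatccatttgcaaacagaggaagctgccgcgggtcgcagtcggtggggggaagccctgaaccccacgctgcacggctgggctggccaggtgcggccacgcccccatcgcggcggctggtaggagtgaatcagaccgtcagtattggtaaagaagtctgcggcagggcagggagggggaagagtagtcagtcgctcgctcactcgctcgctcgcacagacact
The upstream Bcl6 window held 1 match, TTCTCAGAA, whose first base lay at -118 from the start. The internal Bcl6 window held 3, TTCCTGGAA at -168, TTCTGTGAA at -122 and TTCCGGGAA at -88. The Prdm1 window held none. This pattern reads the same on both strands, so each place was counted once, and 8.3% of 32851 mouse windows of the same length held at least 1 match. A count of 3 or more, a measure chosen after the matches were seen, was found in 11 windows (0.0335%). TTCCTAGAA, a Bcl6 pattern that is itself a case of TTCNNNGAA, and AGNGAAAG, a Blimp-1 pattern, were searched on both strands and were in none of the 3 windows, while 0.411% and 8.63% of all windows held them.

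The RNAs of these repressors had different orders over the populations. Bcl6 was highest in CD62Llo PSGL1lo cells on both of its probe sets. Prdm1 was highest in both PSGL1hi populations and lower in CD62Llo PSGL1lo and naive cells. Among all 4 populations, limma's F test gave F = 146 (adjusted p = 1.54e-08) for Bcl6 probe set 1421818_at, 82.4 (2.99e-07) for Bcl6 probe set 1450381_a_at and 287 (6.07e-10) for Prdm1. The same test called 23.7% of the 45037 probe sets tested.

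On 1421818_at, Bcl6 had ratios of 4.30, 4.06 and 4.89 in CD62Llo PSGL1lo cells, 1.05, 1.44 and 0.971 in CD62Llo PSGL1hi cells, 1.03, 0.911 and 0.813 in CD62Lhi PSGL1hi cells, and 0.685, 0.672 and 0.621 in naive cells. The CD62Llo PSGL1lo arrays stood far above the other 9, the PSGL1hi populations overlapped, and the naive arrays were the lowest. On 1450381_a_at, Bcl6 had ratios of 3.18, 3.32 and 2.95 in CD62Llo PSGL1lo cells, 0.921, 0.930 and 1.03 in CD62Llo PSGL1hi cells, 0.746, 0.991 and 1.03 in CD62Lhi PSGL1hi cells, and 1.01, 0.982 and 0.759 in naive cells. Again CD62Llo PSGL1lo cells stood apart, and on this probe set the other 3 populations all overlapped.

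Prdm1 had ratios of 0.391, 0.347 and 0.316 in CD62Llo PSGL1lo cells, 2.45, 2.08 and 2.05 in CD62Llo PSGL1hi cells, 2.25, 2.40 and 1.61 in CD62Lhi PSGL1hi cells, and 0.237, 0.224 and 0.234 in naive cells. The 6 PSGL1hi arrays were all above the other 6, and the naive arrays were below every CD62Llo PSGL1lo array. Its spread was smallest in naive cells, where the SD was 0.00681 around a mean ratio of 0.232, against 0.422 around 2.09 in CD62Lhi PSGL1hi cells (n = 3 each).

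**Figure D1:**
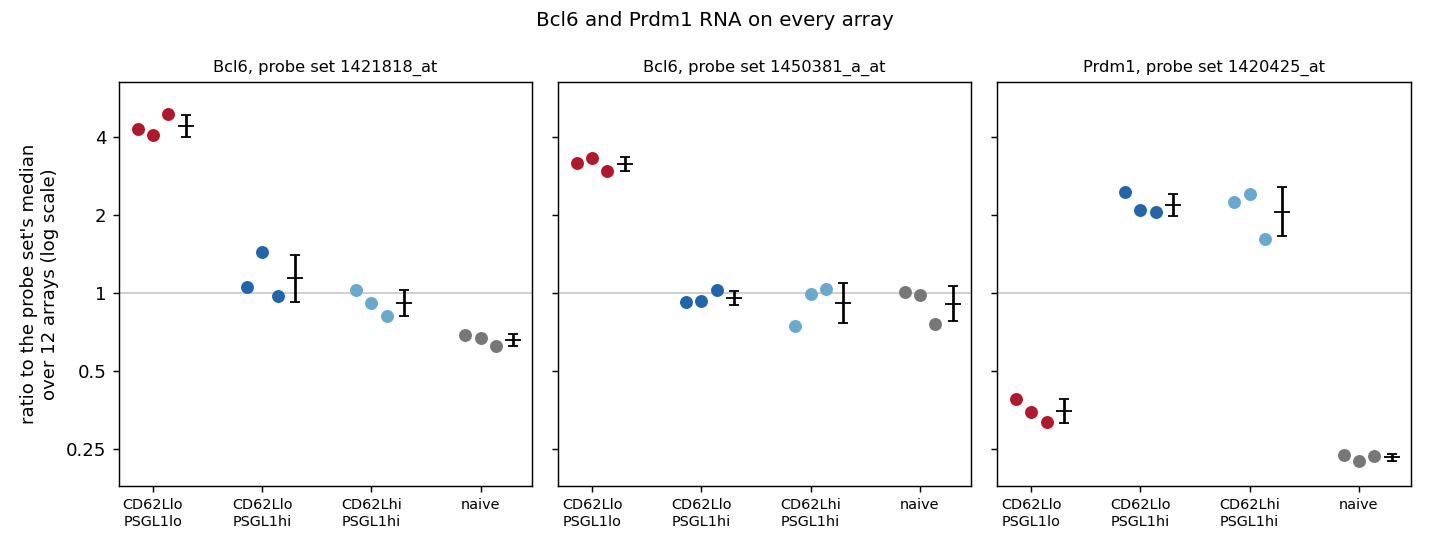
Ratio of each probe set to its own median over 12 arrays (log axis) on every array, for 2 Bcl6 probe sets and the Prdm1 probe set, by population. Points are arrays, and the black mark and bar are the mean ± SD of the log2 ratios of 3 arrays. Bcl6 was high in the CD62Llo PSGL1lo arrays alone, and Prdm1 in the 6 PSGL1hi arrays.

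The first comparison asks what low PSGL1 marks among CD62Llo cells. All 3 probe sets differed between CD62Llo PSGL1lo and CD62Llo PSGL1hi cells, in a comparison that called 8.38% of all probe sets (3.41% higher and 4.97% lower). Bcl6 averaged 4.42 ± 0.427 in CD62Llo PSGL1lo cells and 1.15 ± 0.248 in CD62Llo PSGL1hi cells (SD, n = 3 each), a rise of 1.95 ± 0.14 on the log2 scale (SE), or 3.87-fold (limma adjusted p = 6.39e-07). On 1450381_a_at the means were 3.15 ± 0.188 and 0.960 ± 0.0594, a 3.28-fold rise (1.71 ± 0.14, adjusted p = 1.81e-06). Prdm1 averaged 0.351 ± 0.0377 in CD62Llo PSGL1lo cells and 2.19 ± 0.225 in CD62Llo PSGL1hi cells, a difference of -2.64 ± 0.14, or 6.25-fold lower (adjusted p = 3.42e-08). No array of either population overlapped the other on any of the 3 probe sets. With 1 probe set kept for each of 18193 genes, the Bcl6 rise was the 50th highest log2 difference and the Prdm1 fall the 45th lowest.

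CD62Llo PSGL1lo cells were also set against CD62Lhi PSGL1hi cells, a comparison that shares the same CD62Llo PSGL1lo arrays. All 3 probe sets were called there, beside 11.6% of all probe sets. Bcl6 was 2.27 ± 0.14 higher on 1421818_at, 4.82-fold (adjusted p = 9.75e-08), and 3.44-fold higher on 1450381_a_at (1.78 ± 0.14, adjusted p = 7.69e-07). Prdm1 was 5.88-fold lower (-2.56 ± 0.14, adjusted p = 3.70e-08). These were the 57th highest and 65th lowest of 18193 log2 differences.

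The comparison of CD62L at high PSGL1 gave no call on any of the 3 probe sets, where limma called 1.23% of all probe sets. Bcl6 differed by 0.32 ± 0.14 on 1421818_at (adjusted p = 0.505, unadjusted p = 0.0423) and by 0.07 ± 0.14 on 1450381_a_at (adjusted p = 0.942). Prdm1 differed by 0.09 ± 0.14 (adjusted p = 0.923). The arrays of the CD62Llo PSGL1hi and CD62Lhi PSGL1hi populations overlapped on each of them.

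Against naive cells, Prdm1 rose in all 3 CD44+ populations and Bcl6 rose on both probe sets only in CD62Llo PSGL1lo cells. Between CD62Llo PSGL1lo and naive cells all 3 probe sets were called, beside 20.1% of all probe sets. Bcl6 was 6.68-fold higher on 1421818_at (2.74 ± 0.14, adjusted p = 4.44e-09) and 3.46-fold higher on 1450381_a_at (1.79 ± 0.14, adjusted p = 2.64e-07). Prdm1 was 1.51-fold higher in CD62Llo PSGL1lo cells (0.60 ± 0.14, adjusted p = 0.00724), with every array above every naive array. After quantile normalization this Prdm1 difference turned to -0.35 (adjusted p = 0.232), so its direction depends on the scaling.

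Prdm1 was 9.44-fold higher in CD62Llo PSGL1hi than in naive cells (3.24 ± 0.14, adjusted p = 1.22e-09) and 8.89-fold higher in CD62Lhi PSGL1hi than in naive cells (3.15 ± 0.14, adjusted p = 2.03e-09). These were the 95th and 89th highest of 18193 differences. In each of these comparisons 2 of the 3 probe sets were called, beside 17.3% of all probe sets in either. The other called probe set was Bcl6 1421818_at, 1.73-fold higher in CD62Llo PSGL1hi cells (0.79 ± 0.14, adjusted p = 0.00109) and 1.39-fold higher in CD62Lhi PSGL1hi cells (0.47 ± 0.14, adjusted p = 0.0325). On 1450381_a_at Bcl6 differed by 0.08 ± 0.14 (adjusted p = 0.768) and 0.01 ± 0.14 (adjusted p = 0.984) in these comparisons. The call for CD62Lhi PSGL1hi cells was also lost after quantile normalization (adjusted p = 0.225) and without any 1 of 5 arrays, which were CD62Lhi PSGL1hi replicates 1 and 2 and naive replicates 1, 2 and 3 (adjusted p from 0.0641 to 0.135).

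**Figure D2:**
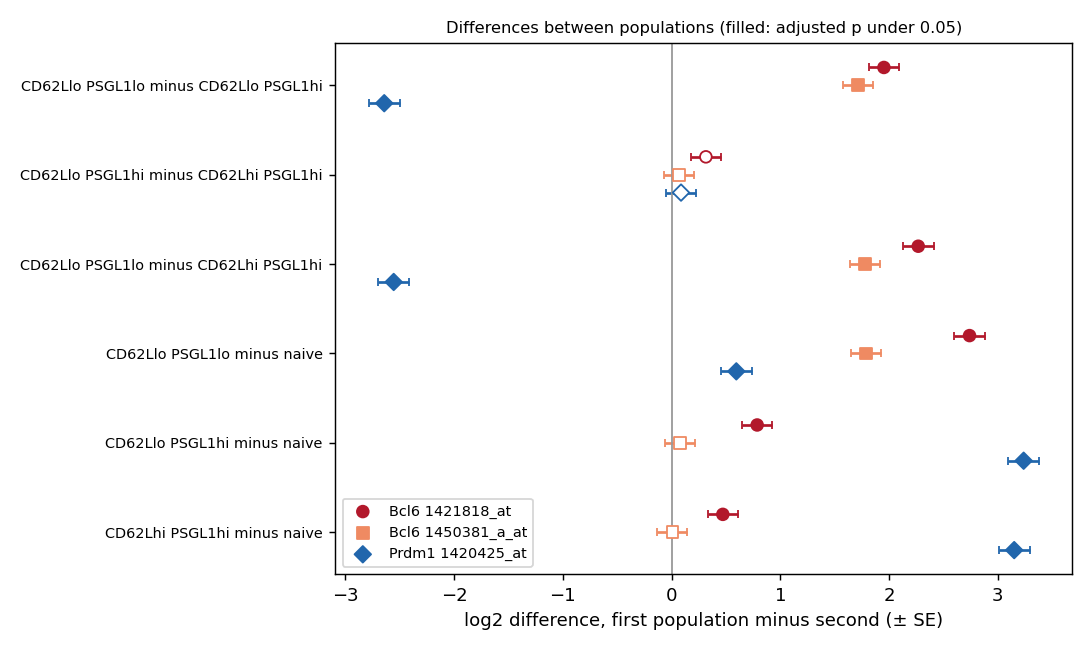
Log2 difference between populations, first minus second, with its SE, for the 3 probe sets in 6 comparisons. Filled marks had a limma adjusted p under 0.05. Bcl6 lies right and Prdm1 left of 0 where CD62Llo PSGL1lo cells are set against PSGL1hi cells, and all 3 probe sets are close to 0 between the PSGL1hi populations.

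The Bcl6 probe sets thus parted in how they placed naive cells. The log2 value of 1421818_at minus that of 1450381_a_at was 0.433, 0.292 and 0.731 in CD62Llo PSGL1lo cells, 0.195, 0.627 and -0.0823 in CD62Llo PSGL1hi cells, 0.464, -0.121 and -0.346 in CD62Lhi PSGL1hi cells, and -0.559, -0.547 and -0.290 in naive cells. Only the naive arrays were below 0 on all 3. Against naive cells an exact two-sided permutation test over arrays gave p = 0.1 for CD62Llo PSGL1lo, 0.1 for CD62Llo PSGL1hi and 0.2 for CD62Lhi PSGL1hi cells, where 0.1 is the smallest p that 3 arrays against 3 allow. Which Bcl6 transcripts each probe set detects was not analysed here.

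Reading both genes on the same array gives their balance, log2 Bcl6 (1421818_at) minus log2 Prdm1, in which 0 means only that both sit equally far from their own medians. It was 3.46, 3.55 and 3.95 in CD62Llo PSGL1lo cells, -1.22, -0.54 and -1.08 in CD62Llo PSGL1hi cells, -1.13, -1.40 and -0.98 in CD62Lhi PSGL1hi cells, and 1.53, 1.58 and 1.41 in naive cells. The balance thus put naive cells between CD62Llo PSGL1lo cells and the 2 PSGL1hi populations, with no overlap except between the PSGL1hi populations. Its mean was 3.65 ± 0.263 in CD62Llo PSGL1lo cells and -0.94 ± 0.360 in CD62Llo PSGL1hi cells (SD, n = 3 each), a difference of 4.60, or 24.2-fold. CD62Llo PSGL1lo cells were 4.83 above CD62Lhi PSGL1hi cells (28.3-fold) and 2.15 above naive cells (4.42-fold). CD62Llo PSGL1hi cells were at -2.45 and CD62Lhi PSGL1hi cells at -2.68 relative to naive cells. With 1450381_a_at for Bcl6, CD62Llo PSGL1lo cells were 4.36 above CD62Llo PSGL1hi cells (20.5-fold), 4.34 above CD62Lhi PSGL1hi cells (20.2-fold) and 1.19 above naive cells (2.29-fold). On that probe set CD62Llo PSGL1hi cells were at -3.16 and CD62Lhi PSGL1hi cells at -3.14 relative to naive cells. An exact two-sided permutation test gave p = 0.1, the smallest possible here, for these 5 pairs (0.12 adjusted over 6 pairs), and p = 0.5 for the PSGL1hi populations, which differed by 0.23.

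**Figure D3:**
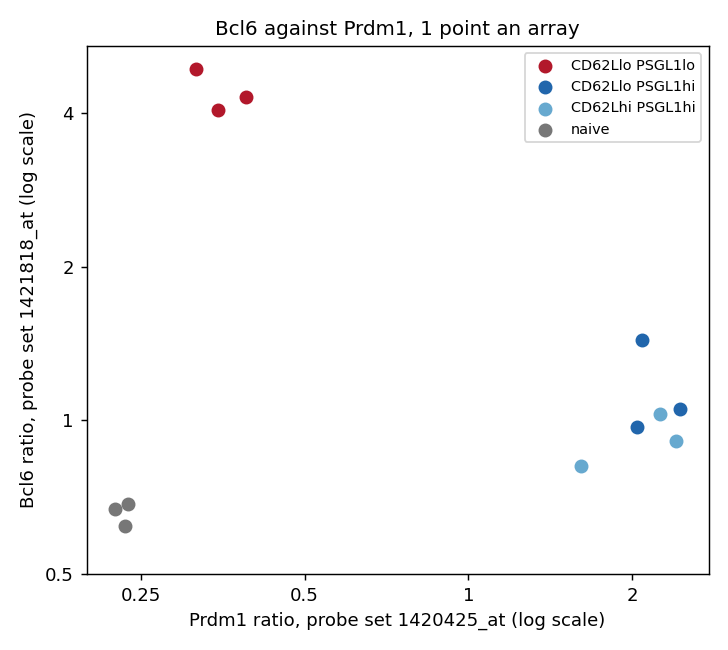
Ratio of Bcl6 (1421818_at) against ratio of Prdm1 (1420425_at) on each of 12 arrays, both axes logarithmic, coloured by population. CD62Llo PSGL1lo arrays lie high on Bcl6 and low on Prdm1, PSGL1hi arrays the other way, and naive arrays are low on both.

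As the plot of one gene against the other shows, the 2 patterns were not mirror images on 1421818_at, where naive cells had the lowest ratios of both genes. On 1450381_a_at the naive arrays overlapped both PSGL1hi populations for Bcl6. Likeness was measured over the 12 arrays as the root mean square (RMS) difference of log2 values, each gene centred on its own mean, for 18193 genes. Sign-turned Prdm1 lay at an RMS of 1.62 from Bcl6 (1421818_at) and was the 17739th nearest gene by that measure. The RMS counts the size of changes as well as their direction, so a gene that hardly changes can rank nearer. This rank therefore does not measure how far the 2 genes were opposed. The spread of Bcl6 and of Prdm1 around their own population means was 0.154 each.

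Genes closest to the Bcl6 pattern were the sodium/proton exchanger gene Slc9b2 (RMS 0.201), 8030451A03Rik (0.210), the G protein signalling regulator gene Rgs8 (0.223), the stanniocalcin gene Stc2 (0.229) and the lipid transfer gene Stard5 (0.236). Of these, Stard5 had mean ratios of 5.34 in CD62Llo PSGL1lo, 1.33 in CD62Llo PSGL1hi, 0.830 in CD62Lhi PSGL1hi and 0.702 in naive cells. Closest to the sign-turned Bcl6 pattern were Pxylp1 (0.197), the extracellular matrix gene Ecm1 (0.203) and the myosin light chain gene Myl4 (0.212). Ecm1 had mean ratios of 0.249, 0.963, 1.03 and 1.78 in the same order of populations. So a few genes followed Bcl6 about as closely in reverse as in parallel.

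Closest to Prdm1 were the death-associated kinase gene Dapk2 (RMS 0.289), the interleukin 10 receptor gene Il10ra (0.324), Ncald (0.336), Ier3 (0.354) and the adhesion gene Epcam (0.362). Il10ra had mean ratios of 0.406 in CD62Llo PSGL1lo, 1.91 in CD62Llo PSGL1hi, 2.50 in CD62Lhi PSGL1hi and 0.357 in naive cells. All 5 fell in CD62Llo PSGL1lo against CD62Llo PSGL1hi cells, with log2 differences from -3.17 for Ier3 to -1.90 for Epcam. Sign-turned Prdm1 had no close match: the nearest were Ramp1 (0.577), the sodium pump subunit gene Atp1b1 (0.606) and Rflnb (0.639).

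**Figure D4:**
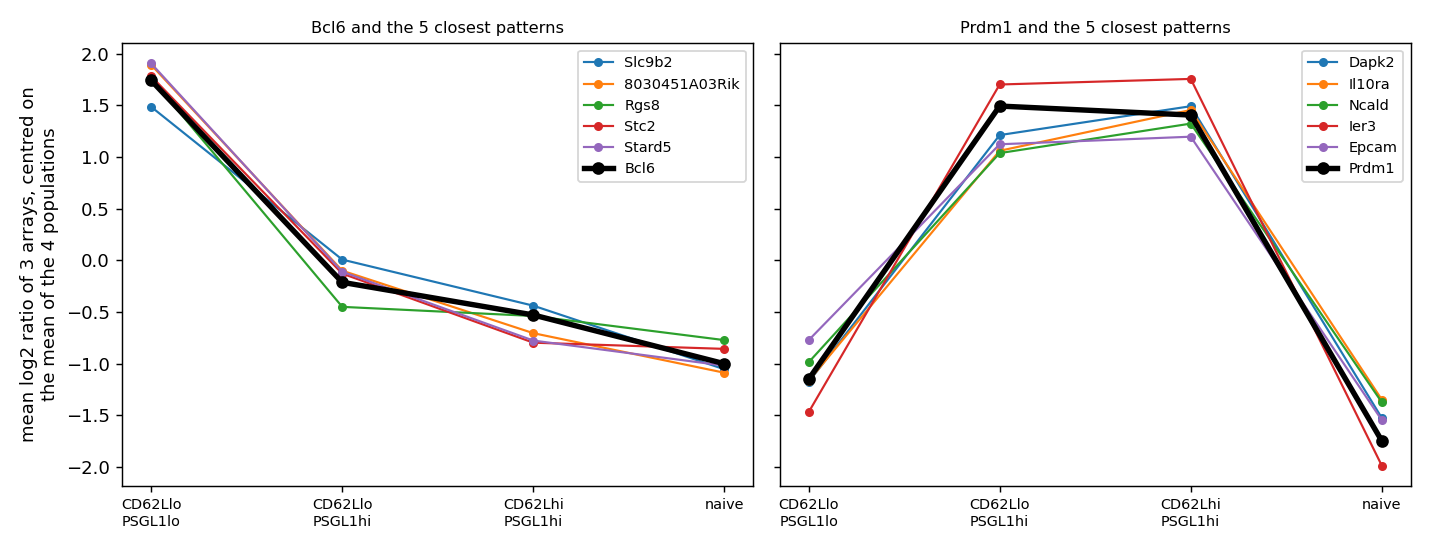
Mean log2 ratio of 3 arrays in each population, centred on the mean of the 4 populations, for Bcl6 and Prdm1 (black) and the 5 genes nearest to each in RMS difference. The Bcl6 group peaks in CD62Llo PSGL1lo cells, and the Prdm1 group is high in both PSGL1hi populations.

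Genes that work with or against the 2 repressors were read from lists in CD62Llo PSGL1lo against CD62Llo PSGL1hi cells, with 1 probe set a gene. Over all 18193 genes 9.67% were called, 4.04% higher and 5.63% lower, and the median log2 difference was 0.01. Of 11 genes tested among the partners and inducers of Bcl6, 4 rose and 0 fell by limma (0 lower at an unadjusted p under 0.05 too), with a median of 0.48. Ascl2, a factor that promotes follicular helper cells, had ratios of 50.5, 29.4 and 37.0 in CD62Llo PSGL1lo cells, against 1.33, 4.26 and 1.07 in CD62Llo PSGL1hi cells. It rose by 4.38 ± 0.38 (adjusted p = 4.05e-06). Pou2af1, a coactivator gene of lymphocytes, rose by 2.60 ± 0.24 (adjusted p = 5.50e-06), with ratios of 3.79, 2.86 and 3.51 against 0.413, 0.937 and 0.438. No CD62Llo PSGL1lo array overlapped the others for either gene.

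Lef1, a factor that acts before Bcl6 in helper cell differentiation, rose by 0.67 ± 0.15 (adjusted p = 0.0109). Il6st, the signalling subunit of the interleukin 6 receptor, rose by 0.57 ± 0.14 (adjusted p = 0.0185). Without CD62Llo PSGL1hi replicate 3 both calls were lost (adjusted p = 0.0534 for Lef1 and 0.0578 for Il6st) and the list had 2 rises, and the Il6st call was also lost without any 1 of 3 other arrays. The other 3 probe sets of Il6st were called too, with differences from 0.92 to 1.66. Irf4, a factor needed by both repressor programmes, differed by 0.24 ± 0.10 (adjusted p = 0.209). Maf, a helper cell factor that also acts with Blimp-1, differed by 0.55 ± 0.26 (adjusted p = 0.308). Stat3, a carrier of interleukin 6 and 21 signals, differed by -0.16 ± 0.09 (adjusted p = 0.434). Against naive cells, Maf RNA was 6.28 ± 0.26 higher in CD62Llo PSGL1lo cells and 5.73 ± 0.26 higher in CD62Llo PSGL1hi cells. Tcf7 was not analysed here.

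Among inducers of Blimp-1 and opponents of Bcl6, 5 of 12 tested genes fell and 2 rose, with a median of -0.28. Tbx21, the Th1 factor T-bet, fell by 2.11 on the log2 scale (SE 0.14, adjusted p = 3.49e-07), with ratios of 0.417, 0.352 and 0.551 in CD62Llo PSGL1lo cells against 1.86, 1.66 and 2.10 in CD62Llo PSGL1hi cells. Klf2, a factor that keeps T cells recirculating and restrains follicular helper cells in mice, fell by 1.80 (SE 0.16, adjusted p = 3.48e-06). Id2, an inhibitor of E proteins, was at -1.22 ± 0.15 (adjusted p = 8.85e-05). Il2ra, a chain of the high-affinity interleukin 2 receptor, whose signal induces Blimp-1, was at -1.17 ± 0.19 (adjusted p = 9.38e-04). Its second probe set, 1420692_at, gave -3.19. Foxo1, a factor that keeps T cells quiescent, was at -0.66 ± 0.12 (adjusted p = 0.00271). The 2 that rose, Zeb2 (0.79 ± 0.16, adjusted p = 0.00462) and Stat4 (0.72 ± 0.16, adjusted p = 0.00990), were not called after quantile normalization.

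Among 16 tested genes reported as targets that Bcl6 represses, 9 fell and 0 rose in CD62Llo PSGL1lo cells by limma (2 were higher at an unadjusted p under 0.05), with a median of -0.79. The chemokine gene Ccl3 had ratios of 0.246, 0.186 and 0.245 in CD62Llo PSGL1lo cells, against 3.48, 2.93 and 3.05 in CD62Llo PSGL1hi cells. Ccl3 fell by 3.81 on the log2 scale (SE 0.15, adjusted p = 1.69e-09). Ccr6, a chemokine receptor gene, was at -2.10 ± 0.18 (adjusted p = 3.58e-06), and the nuclear receptor gene Rora at -1.10 ± 0.12 (adjusted p = 2.69e-05). The cytokine receptor gene Il7r (-0.80 ± 0.13), the cyclin gene Ccnd2 (-0.83 ± 0.16) and the DNA damage kinase gene Atr (-0.45 ± 0.10) completed the called set with Tbx21, Klf2 and Id2, which are also in the list before. The 7 not called included Gata3 (0.28 ± 0.13, adjusted p = 0.296) and Chek1 (-0.01 ± 0.16, adjusted p = 0.992). Set against CD62Lhi PSGL1hi cells, the list also held a rise by limma, Gata3 (0.95 ± 0.13, adjusted p = 1.71e-04). There Id2 (0.12 ± 0.15, adjusted p = 0.758), Il7r, Ccnd2 and Atr were not called. Ccl3, Klf2, Tbx21, Ccr6, Rora, Chek1 and S1pr1 were lower. Relative to naive cells the same list had 8 genes higher and 4 lower in CD62Llo PSGL1lo cells, 8 and 2 in CD62Llo PSGL1hi cells, and 8 and 2 in CD62Lhi PSGL1hi cells, where 21.9% (10.7% higher and 11.2% lower), 19.0% (10.1% and 8.99%) and 19.2% (10.0% and 9.22%) of all genes were called. Tbx21, for one, was 2.49 ± 0.14 above naive cells in CD62Llo PSGL1lo cells and 4.60 ± 0.14 above them in CD62Llo PSGL1hi cells.

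Reported targets of Blimp-1 repression went both ways, with 3 of 12 tested genes higher and 2 lower and a median of 0.15. Cxcr5, the receptor that draws T cells into follicles, had ratios of 1.87, 1.40 and 2.14 in CD62Llo PSGL1lo cells, against 0.954, 0.819 and 0.916 in CD62Llo PSGL1hi cells. It rose by 0.99 ± 0.14 (adjusted p = 2.95e-04). Spib, a B lineage Ets factor gene, rose by 1.25 ± 0.21 (adjusted p = 0.00153), and Id3, an E protein inhibitor gene, by 0.90 ± 0.19 (adjusted p = 0.00741). The 2 that fell were Tbx21 and Ifng, the interferon gamma gene (-1.91 ± 0.19, adjusted p = 1.20e-05). Bach2, a repressor gene that opposes Prdm1, differed by 0.15 ± 0.11 (adjusted p = 0.575), and by 0.64 (adjusted p = 0.00628) after quantile normalization, when the list had 5 rises. Bach2 was lower than in naive cells in all 3 CD44+ populations, by log2 differences of -2.27, -2.42 and -1.78 in CD62Llo PSGL1lo, CD62Llo PSGL1hi and CD62Lhi PSGL1hi cells. Cxcr5 was higher than in naive cells in all 3, by 4.81, 3.825 and 4.07 in the same order.

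A module of inhibitory receptor and cytokine genes that Blimp-1 and c-Maf induce together in mouse T cells had 2 of 6 tested genes lower and 1 higher, with a median of -0.26 and calls in opposite directions. Il10 had ratios of 0.200, 0.215 and 0.207 in CD62Llo PSGL1lo cells, 2.12, 2.23 and 2.03 in CD62Llo PSGL1hi cells, 2.34, 2.38 and 1.78 in CD62Lhi PSGL1hi cells, and 0.121, 0.0993 and 0.0899 in naive cells. Its PSGL1hi arrays were all above the others and its naive arrays were the lowest, as for Prdm1. Il10 fell by 3.36 on the log2 scale against CD62Llo PSGL1hi cells (SE 0.13, adjusted p = 1.58e-09). Havcr2, the gene of the inhibitory receptor TIM-3, fell by 4.10 (SE 0.16, adjusted p = 2.14e-09). Pdcd1, the gene of PD-1, another inhibitory receptor, rose by 1.62 ± 0.16 (adjusted p = 1.10e-05), with ratios of 4.17, 2.85 and 4.0 in CD62Llo PSGL1lo cells against 1.33, 1.27 and 0.973. Against naive cells Il10 was 1.01 ± 0.13 higher in CD62Llo PSGL1lo cells, but this turned to -0.33 after quantile normalization, as Prdm1 did.

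**Figure D5:**
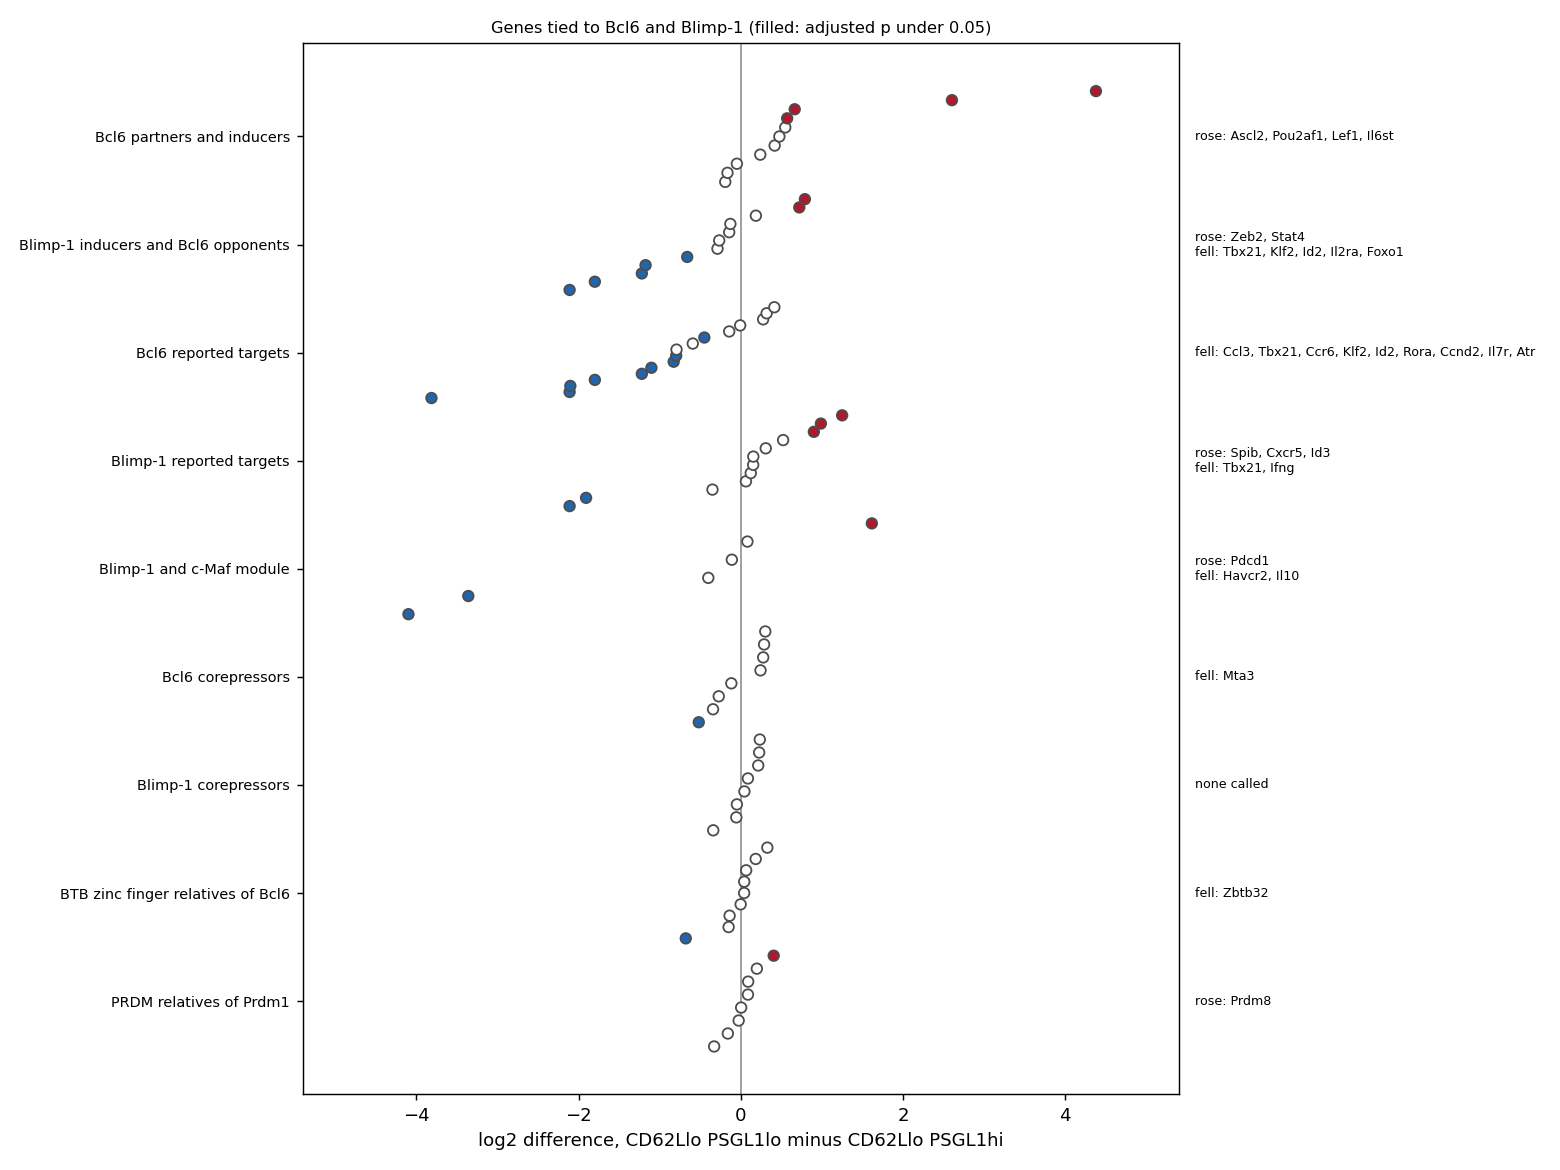
Log2 difference, CD62Llo PSGL1lo minus CD62Llo PSGL1hi, of every tested gene in 9 lists tied to Bcl6 and Blimp-1, 1 point a gene. Red points rose and blue points fell at a limma adjusted p under 0.05, open points were not called, and called genes are listed at the right. The reported Bcl6 targets have 9 blue and 0 red points, and the corepressor lists hold 1 blue point, Mta3.

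Genes of the corepressors through which both factors act were read in CD62Llo PSGL1lo against CD62Llo PSGL1hi cells, where 9.67% of all genes were called. Of 8 corepressor genes of Bcl6, 1 fell, Mta3 (-0.52 ± 0.13, adjusted p = 0.0214), a subunit of a deacetylase complex. Its other 2 probe sets gave -0.05 and -0.25. The call was lost without any 1 of 3 arrays and in a fit of only these 2 populations (adjusted p = 0.0604). The deacetylase gene Hdac3 differed by 0.30 ± 0.09 (adjusted p = 0.0605, and 0.0233 after quantile normalization). Sin3a was not called on the probe set counted (-0.27 ± 0.13, adjusted p = 0.296), but was lower on 1419102_at (-0.52 ± 0.14, adjusted p = 0.0309). Of 8 corepressor genes of Blimp-1, limma called 0, and 0 had an unadjusted p under 0.05. The largest difference was in Tle3, a Groucho family gene (-0.34 ± 0.17, adjusted p = 0.346, unadjusted p = 0.0710). With a replicate block over 12 arrays Tle3 was called (adjusted p = 0.0490).

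Relatives of the 2 repressors were read the same way, in the comparison where 9.67% of all genes were called. Of 9 BTB zinc finger relatives of Bcl6, 1 fell in CD62Llo PSGL1lo cells, Zbtb32 (-0.68 ± 0.13, adjusted p = 0.00300), and its other probe set gave -0.05. The median of these 9 was 0.04. Of 8 PRDM relatives of Prdm1, 1 rose, Prdm8 (0.41 ± 0.09, adjusted p = 0.0100, and 0.0526 without CD62Llo PSGL1lo replicate 3), and the median was 0.05. The nearest relative of Bcl6 on the list, Bcl6b, differed by 0.07 ± 0.11 (adjusted p = 0.849).

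Markers of other cells that express Bcl6 or Prdm1 were read on the same arrays. Of all genes 9.67% were called between CD62Llo PSGL1lo and CD62Llo PSGL1hi cells, 4.04% higher and 5.63% lower. Between CD62Llo PSGL1lo and naive cells 10.7% were higher and 11.2% lower. Of 6 regulatory T cell markers 4 fell in CD62Llo PSGL1lo against CD62Llo PSGL1hi cells, and Foxp3, their lineage factor gene, was at -3.74 ± 0.17 (adjusted p = 9.20e-09). Their mean log2 ratio over an array ranged from -1.22 to -0.88 in CD62Llo PSGL1lo, 0.33 to 0.64 in CD62Llo PSGL1hi, 0.42 to 0.61 in CD62Lhi PSGL1hi and -1.74 to -1.60 in naive cells. Regulatory T cells are known to express Prdm1 and Il10, and the mean over these markers, like Prdm1, was lower in CD62Llo PSGL1lo and naive cells than in both PSGL1hi populations. The part of these markers in the Prdm1 and Il10 results was not tested. Against naive cells 4 of the 6 markers were higher in CD62Llo PSGL1lo cells, Ctla4 (3.18 ± 0.13), Ikzf2 (1.08 ± 0.14), Itgae (0.91 ± 0.22) and Tnfrsf18 (0.40 ± 0.12). Foxp3 was lower (-1.42 ± 0.17). Il2ra was not called on the probe set counted (-0.38 ± 0.19, adjusted p = 0.194), but was lower on 1420692_at (-2.47, adjusted p = 2.98e-09). Against CD62Llo PSGL1hi cells, the markers not called were Ctla4 (0.40 ± 0.13, adjusted p = 0.0992) and Ikzf2 (0.31 ± 0.14, adjusted p = 0.254).

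Plasma cell markers, whose cells make Blimp-1, had 0 of 7 genes called by limma between CD62Llo PSGL1lo and CD62Llo PSGL1hi cells, and 2 at an unadjusted p under 0.05. In this comparison, also used for the counts of the lists below, 9.67% of all genes were called. Their mean log2 ratio ranged from -0.20 to 0.27 in CD62Llo PSGL1lo, 0.04 to 0.27 in CD62Llo PSGL1hi, 0.12 to 0.54 in CD62Lhi PSGL1hi and -0.99 to -0.95 in naive cells. Against naive cells 3, 4 and 5 of the 7 were higher in CD62Llo PSGL1lo, CD62Llo PSGL1hi and CD62Lhi PSGL1hi cells. Of all genes 10.7%, 10.1% and 10.0% were higher there. Irf4 and Xbp1, which T cells also express, were among them in each. So was Jchain, by 2.59 ± 0.27, 3.31 ± 0.27 and 3.13 ± 0.27 in the same order. Mzb1 was higher in CD62Llo PSGL1hi (1.00 ± 0.24) and CD62Lhi PSGL1hi cells (0.82 ± 0.24), and Sdc1 in CD62Lhi PSGL1hi cells (1.47 ± 0.15). The part of these markers in the Prdm1 rise over naive cells was not tested. Of 7 B cell markers, whose germinal centre cells express Bcl6, 2 fell in CD62Llo PSGL1lo cells, Cd79b (-1.03 ± 0.10) and Ms4a1 (-1.51 ± 0.27). Their mean log2 ratio ranged from -0.34 to -0.14 in CD62Llo PSGL1lo, -0.11 to 0.08 in CD62Llo PSGL1hi, -0.14 to 0.22 in CD62Lhi PSGL1hi and -0.07 to -0.02 in naive cells. Cd22, another of these markers, went the other way: it was 1.01 ± 0.19 higher in CD62Llo PSGL1lo than in CD62Lhi PSGL1hi cells (adjusted p = 0.00277) and 1.94 ± 0.19 higher than in naive cells (adjusted p = 4.06e-06), and differed by 0.51 ± 0.19 from CD62Llo PSGL1hi cells (adjusted p = 0.155). The part of B cell markers in the Bcl6 result was not tested. Of 6 NK and CD8 T cell markers 1 fell, Klrd1 (-4.59 ± 0.31), of 9 myeloid markers limma called 0 (1 at an unadjusted p under 0.05), and of 7 T cell markers 1 rose, Zap70 (0.59 ± 0.12). Cd3d, Cd3e, Cd3g and Cd4 differed by at most 0.10 between CD62Llo PSGL1lo and CD62Llo PSGL1hi cells, with no call. Against CD62Lhi PSGL1hi cells, Cd4 was 0.59 ± 0.09 higher in CD62Llo PSGL1lo (adjusted p = 6.21e-04) and in CD62Llo PSGL1hi cells (adjusted p = 0.00456). Cd3d, Cd3e and Cd3g were not called there. Against naive cells, Cd8a was at -0.68, -0.57 and -0.55 in CD62Llo PSGL1lo, CD62Llo PSGL1hi and CD62Lhi PSGL1hi cells. Cd8b1 was at -0.70, -0.67 and -0.48, and Klrd1 at -2.76, 1.83 and 0.20, the last not called. The mean log2 ratio of the myeloid markers ranged from 0.93 to 1.02 in naive cells. It ranged from -0.39 to 0.18 in CD62Llo PSGL1lo, -0.24 to 0.17 in CD62Llo PSGL1hi and -0.23 to 0.10 in CD62Lhi PSGL1hi cells. Against naive cells S100a9 was at -3.68, -3.89 and -3.83 in the same order, and S100a8 at -3.99, -3.76 and -3.98. Csf1r, Cd14, Fcgr1, Adgre1 and Itgax were not called there. Lyz2 was at -1.58, -1.54 and -0.97 in that order, called only in CD62Llo PSGL1lo cells (adjusted p = 0.0419). Itgam was at -0.29, -0.34 and -0.38, called only in the PSGL1hi populations (adjusted p = 0.0357 and 0.0174). The part of these markers in the naive comparisons was not tested. Because values are ratios, absence of a marker cannot be read from them.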

How the data were processed

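RNA of 4 sorted CD4 T cell populations was hybridised to 12 Affymetrix arrays of the mouse genome, 3 a population. The submitters' processing notes name MAS5, with no version given. The deposited values are linear ratios, each relative to the probe set's median, as the values themselves show (median within 0.002 of 1 for 99.7% of 45101 probe sets), so brightness and detection are unknown and the number of arrays limits precision. Array medians lay between 0.967 and 1.02.

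After 64 array controls were dropped, log2 ratios of 45037 probe sets were fitted with limma 3.58.1 in R 4.3.3 (lmFit and eBayes, no trend), with 1 mean per population over all 12 arrays. Tests were two-sided, adjusted by Benjamini-Hochberg over all 45037 probe sets, and called under 0.05. The residual degrees of freedom were 8 and the prior ones 5.54; the median standard error was 0.120. The planned tests had assumed signals; for ratios no dim filter and no pseudocount were used. For counts over genes, 18193 genes had 1 probe set each, chosen by suffix, then RefSeq accession, then lowest number.

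The members and the gene lists were chosen with earlier results of these data known. Named were both members, up to 4 genes of each list with the smallest p between CD62Llo PSGL1lo and CD62Llo PSGL1hi cells, 11 fixed genes, and the nearest 5 and sign-turned nearest 3 patterns; Zeb2, Stat4, the called Bcl6 targets, Bcl6b, cell markers and Gata3 with Chek1 were named after their values were seen. Of the list genes, 13 entries were not analysed here. Deviations of arrays of the same replicate number had correlations from 0.109 to 0.456 among CD44+ populations and from -0.132 to 0.215 with naive arrays. These ranges overlap, so whether the arrays are paired was not settled, and the main fit had no replicate block. On simulated data for CD62Llo PSGL1lo against CD62Llo PSGL1hi over 45037 probe sets, 83.0% of changes of log2 1 and 98.0% of changes of log2 2 were recovered. Promoter windows were RefSeq's on GRCm38.p6.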

Additional observations from a re-analysis of the deposited data

How the results depend on the processing

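Of 518 recalculations of 26 main results, 495 kept direction and side of the threshold, or stayed within 1.5 times for counts. Between CD62Llo PSGL1lo and CD62Llo PSGL1hi cells, Bcl6 stayed called under all 23 alternatives (log2 1.43 to 2.12, adjusted p from 6.47e-08 to 1.54e-04; 1.84 to 2.12 leaving out single arrays) and Prdm1 under all 22 (-3.09 to -2.34, adjusted p from 2.05e-09 to 7.46e-06). The replicate block changed no Bcl6 or Prdm1 call in any comparison.

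Some calls against naive cells turned or ended, beside the list genes named with their lost calls above. After quantile normalization, CD62Llo PSGL1lo minus naive turned to -0.35 for Prdm1, -0.33 for Il10, -0.56 for Havcr2, -0.31 for Ncald and -0.0082 for Epcam; the cause was not tested. Bcl6 in CD62Lhi PSGL1hi minus naive was 0.31 after quantile normalization, 0.0074 on 1450381_a_at, and 0.39 to 0.56 leaving out single arrays. Bcl6 in CD62Llo PSGL1hi minus naive was 0.076 on 1450381_a_at. The Bcl6 to Prdm1 balance between CD62Llo PSGL1hi and CD62Lhi PSGL1hi cells, not past any threshold, turned to -0.065 after quantile normalization and -0.019 on 1450381_a_at.

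Counts of called probe sets moved more. For CD62Llo PSGL1hi minus CD62Lhi PSGL1hi the 556 became 893 after quantile normalization, 368 with only these populations fitted, 1016 with a replicate block on 12 arrays and 1089 within the 9 CD44+ arrays (a setting chosen after seeing the data), and 364 to 714 leaving out single arrays, with 364 and 370 without CD62Llo PSGL1hi replicates 1 and 2. For CD62Llo PSGL1lo minus CD62Lhi PSGL1hi the 5242 became 3274 with only these populations fitted. With 1 probe set a gene, which tests fewer features, CD62Llo PSGL1lo minus CD62Llo PSGL1hi had 1965 calls against 3775, CD62Llo PSGL1lo minus CD62Lhi PSGL1hi 2714, and the CD62Llo PSGL1lo, CD62Llo PSGL1hi and CD62Lhi PSGL1hi comparisons with naive 4224, 3768 and 3766 against 9044, 7772 and 7770. Signal over background is unknown, so its effect on low values could not be read.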
